A study of Mus musculus with 6 samples.

Results

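The 9 genes described here are transcription factors that mark progenitor domains in the dorsal part of the developing spinal cord, taken in order from the roof plate to the dI6 domain: Msx1, Msx2, Msx3, Atoh1, Pax3, Pax7, Gsx1, Ptf1a and Dbx2. They were chosen by name, and each was represented by the row that carries its symbol alone in the platform annotation, so that 9 of 19938 measured genes were followed. Each of the 9 had a single such row. The samples were lumbar spinal cords of E15.5 mouse embryos of strain SV129, 3 of them Tnc -/- and 3 wild-type, and the labels call them biological replicates. Tnc encodes tenascin-C, a large glycoprotein of the extracellular matrix that radial glia and young astrocytes of the embryonic cord secrete. Total RNA of each sample was read on 1 whole-transcript Affymetrix array, and the values are on a log2 scale. The labels do not say how the Tnc allele was made or how many embryos each sample holds.

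Dorsal progenitors of the neural tube are patterned by BMP and Wnt proteins from the roof plate, which induce transcription factors in stripes along the ventricular zone. Each stripe gives rise to its own class of dorsal interneurons, named dI1 next to the roof plate through dI6 next to the ventral domains. By the stage sampled here most cord neurons have been born and the same ventricular zone is turning to the production of glia. Msx1, Msx2 and Msx3 are homeodomain repressors of the most dorsal cells and are induced by BMP signals. Atoh1 is the basic helix-loop-helix factor of the dI1 domain. Pax3 and Pax7, paired-box factors, span the dorsal domains. Gsx1 is a homeodomain factor of the middle dorsal domains, Ptf1a is the basic helix-loop-helix factor that commits cells to inhibitory dorsal horn fates, and Dbx2 is a homeodomain factor on both sides of the border between dorsal and ventral domains.

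Promoters of 8 of the 9 genes were matched by symbol in RefSeq (build GRCm38.p6). Shown are those of Msx1 and Msx2, whose values moved together over the arrays, and of Msx3 and Atoh1, the pair whose differences kept their sign whichever array was left out. Each run is the 250 bases upstream of the annotated start, 5′ to 3′ on the gene's strand. The windows are chr5:37824586-37824835 (minus strand), chr13:53472781-53473030 (minus strand), chr7:140049089-140049338 (minus strand) and chr6:64728875-64729124 (plus strand). Capitals mark matches, on either strand, to the E-box letters CANNTG, bound by basic helix-loop-helix factors, to the homeodomain letters TAATTA, to GGCGCC, a GC-rich element of BMP-responsive enhancers, and to CTTTGA, the core bound by TCF factors of Wnt signalling. No matches of different motifs overlap.
Msx1: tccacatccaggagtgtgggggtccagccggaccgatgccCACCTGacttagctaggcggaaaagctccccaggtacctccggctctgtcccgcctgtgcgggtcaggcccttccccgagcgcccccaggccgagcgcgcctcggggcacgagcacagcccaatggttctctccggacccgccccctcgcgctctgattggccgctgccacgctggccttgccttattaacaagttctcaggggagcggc
Msx2: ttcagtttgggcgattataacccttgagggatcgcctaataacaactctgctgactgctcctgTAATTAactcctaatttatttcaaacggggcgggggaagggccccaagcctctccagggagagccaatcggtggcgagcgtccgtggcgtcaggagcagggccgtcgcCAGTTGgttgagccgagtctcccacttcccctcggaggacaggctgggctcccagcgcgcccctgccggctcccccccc
Msx3: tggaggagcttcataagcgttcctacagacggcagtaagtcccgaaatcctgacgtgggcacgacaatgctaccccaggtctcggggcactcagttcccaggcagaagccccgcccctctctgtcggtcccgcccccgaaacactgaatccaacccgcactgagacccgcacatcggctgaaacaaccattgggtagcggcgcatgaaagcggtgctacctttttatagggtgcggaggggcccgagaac
Atoh1: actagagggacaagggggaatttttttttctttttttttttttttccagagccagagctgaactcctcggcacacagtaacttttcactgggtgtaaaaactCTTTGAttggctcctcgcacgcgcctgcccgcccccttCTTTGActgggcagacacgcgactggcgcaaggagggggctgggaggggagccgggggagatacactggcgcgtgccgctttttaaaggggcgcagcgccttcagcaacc

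The Atoh1 window held 2 CTTTGA matches and no E-box. Its own protein binds E-boxes, and the Msx1 and Msx2 windows held 1 E-box each. Msx2 alone of these 4 held TAATTA, and Msx3 held none of the motifs searched. Over 32851 promoter windows of the same length, 66.2% held an E-box, 13.8% CTTTGA, 9.59% GGCGCC and 4.84% TAATTA. The windows were rich in G and C, at 68.0%, 61.6%, 60.0% and 55.6% in the order printed, against a median of 52.4% over all windows. These are matches of letters only.

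Tnc itself read 9.64, 9.76 and 9.47 in the knockout arrays, against 10.72, 10.22 and 10.02 in the wild-type arrays, a log2 difference of -0.69, so signal remained in the cords labelled knockout. Which part of the gene that row covers is not stated in the labels. Y-linked transcripts were present in knockout replicates 1 and 3 and absent from the other 4 arrays, so sex differed between the groups along with Tnc. Array medians lay between 6.96 and 7.10, and the first principal component held 50.2% of the variance, with wild-type replicates 1 and 3 at its ends. As a guide to background, 1190 olfactory and vomeronasal receptor genes had a 95th percentile of 6.14. All 9 Hox genes listed for the hindlimb level and all 10 neural progenitor genes stood above this guide. Of 9 measured genes listed as brain regional, 3 did (En1, Emx1 and Six3). Whether the cord itself makes these 3 was not tested. Samples taken as biological replicates come with no litter or culture named, so each test measures the spread between these samples only.

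Between knockout and wild type no dorsal progenitor factor passed the test, and neither did Tnc itself. The 2 most negative differences among the factors were those of Atoh1 and Msx3. Atoh1 signal in knockout was 82.7% of wild type and Msx3 signal 87.4%. The broad factors Pax3 and Pax7 stood at 99.2% and 96.6%, and Dbx2 at 99.7%. In limma with Benjamini-Hochberg adjustment over all genes, 0 of 9 members passed an adjusted p of 0.05, beside a background of 0% (0 of 19938 genes). For every member the adjusted p rounded to 1. At an unadjusted p of 0.05 the count was also 0 of 9, beside 1.70% of all genes (339). Of the alternative fits that keep more than 1 array in each group, omission of wild-type replicate 1 brought Atoh1 under that unadjusted level. The term for Y-linked signal did so for Msx3, and array weights for Atoh1, Msx3, Pax3 and Pax7. The share of all genes at that level in these fits was not counted, and the 1.70% is no background for them. With array weights, limma gave Pax7 an unadjusted p of 0.027 and an adjusted p of 0.19, so many genes reached that level there. With 3 arrays against 3, the smallest p that an exact permutation test can give is 0.1, so none was run on single members.

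Knockout and wild-type arrays overlapped for all 9 members, and 5.82% of all genes had groups that did not overlap. By sign alone 8 members were lower in knockout, Gsx1 being the exception, where 53.6% of all genes were lower. The median log2 difference was -0.08 over the members and -0.01 over all genes. Dropping wild-type replicate 1 gave a median of -0.18 and dropping wild-type replicate 3 gave 0.0062, and between 0 and 5 members were higher in knockout when single arrays were left out, so the sign of the group as a whole rested on single arrays. A difference of -0.1 or below was found for 3 of 9 members (Msx1, Msx3 and Atoh1), against 12.9% of all genes. Only Atoh1 and Msx3 stayed lower in all 6 fits that leave out 1 array, which holds for 20.8% of all genes and so is close to the background share. In bulk tissue, fewer progenitors of a domain and less RNA per progenitor cannot be told apart.

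**Figure D1:**
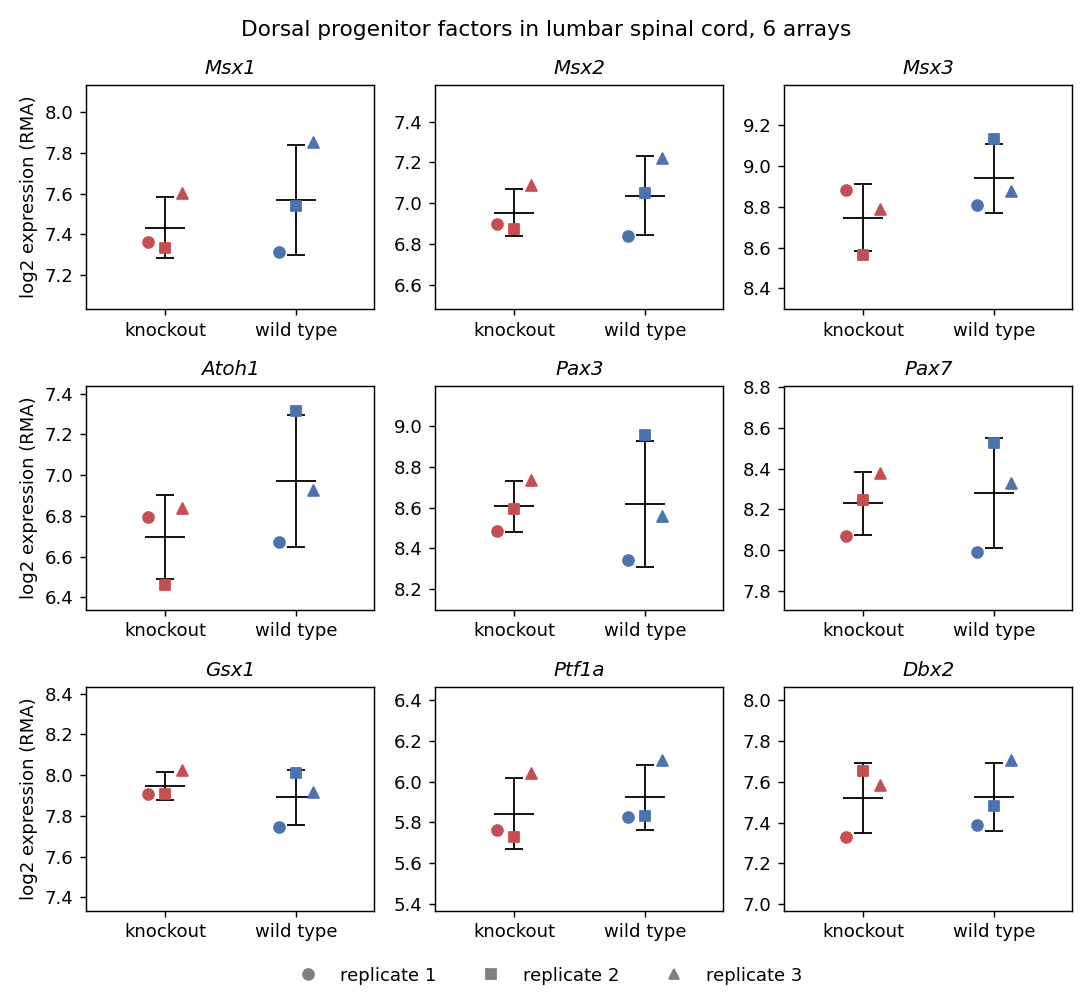
Log2 expression of each dorsal progenitor factor in the 3 knockout arrays (red) and the 3 wild-type arrays (blue), with marker shape giving the replicate number, the long bar the group mean and the whiskers the SD. All panels span the same number of log2 units; the groups overlap in all 9 panels, and wild-type replicate 2 stands highest for Msx3, Atoh1, Pax3 and Pax7.

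Nearest the roof plate, Msx1 and Msx2 are expressed in the roof plate and the first dorsal progenitors. Msx1 read 7.36, 7.33 and 7.60 in knockout arrays, against 7.32, 7.54 and 7.85 in wild-type arrays. Msx2 read 6.90, 6.87 and 7.09 in knockout arrays, against 6.84, 7.05 and 7.22 in wild-type arrays. Both genes put the 6 arrays in the same order, with wild-type replicate 3 highest and wild-type replicate 1 lowest, and the knockout values lay inside the wild-type range. The log2 difference was -0.14 for Msx1 (95% interval -0.46 to 0.19) and -0.08 for Msx2 (-0.34 to 0.18). Without wild-type replicate 3 these were 0.0062 and 0.011, so that 1 array set the sign of each. Without wild-type replicate 1 they were -0.26 and -0.18.

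Msx3, the member of the family that is restricted to the dorsal neural tube, differed in pattern from the other two. It read 8.88, 8.57 and 8.79 in knockout arrays, against 8.81, 9.13 and 8.88 in wild-type arrays. Knockout replicate 2 was the lowest array and wild-type replicate 2 the highest, and the remaining 4 arrays lay within the narrow band between 8.79 and 8.88. Means were 8.75 ± 0.16 in knockout and 8.94 ± 0.17 in wild type (SD, n = 3 each). This amounts to a log2 difference of -0.19 (95% interval -0.46 to 0.07). The difference was larger in size than that of 95.9% of genes, and it shrank to -0.10 both without knockout replicate 2 and without wild-type replicate 2.

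Atoh1, the factor of the dI1 domain, had the widest spread of the 9. Its values were 6.79, 6.46 and 6.84 in knockout arrays and 6.67, 7.32 and 6.93 in wild-type arrays. These lay above the background guide of 6.14 but below the median level over all genes, 7.89. Here 2 wild-type arrays stood above every knockout array, and 1 knockout array, replicate 2, below every wild-type array. Means were 6.70 ± 0.21 in knockout and 6.97 ± 0.32 in wild type (SD, n = 3 each). The log2 difference was -0.27 (95% interval -0.67 to 0.12), and 98.99% of all genes had a smaller difference in size. Its within-group SD of 0.27 was likewise above that of 96.0% of genes. Dropping wild-type replicate 2 gave -0.10, dropping knockout replicate 2 gave -0.16, and dropping wild-type replicate 1 gave -0.42. Knockout replicate 2 was the 1 knockout array without Y-linked signal, and against the wild-type mean it differed by -0.51 for Atoh1 and by -0.38 for Msx3. These values rest on that array, and the part of sex in the differences was not tested.

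Pax3 and Pax7 cover all dorsal domains and are closely related. Pax3 read 8.49, 8.59 and 8.74 in knockout arrays, against 8.34, 8.95 and 8.56 in wild-type arrays. Pax7, which lies on chromosome 4 as Tnc does, read 8.07, 8.24 and 8.38 in knockout arrays, against 7.99, 8.52 and 8.33 in wild-type arrays. For both genes the knockout values lay inside the wild-type range, whose ends were wild-type replicate 1 (lowest) and wild-type replicate 2 (highest). Their log2 differences were -0.01 (interval -0.36 to 0.34) and -0.05 (-0.38 to 0.28). Without wild-type replicate 2 they were 0.16 and 0.07, without knockout replicate 1 they were 0.05 and 0.03, and without wild-type replicate 1 they were -0.15 and -0.20. The within-group SDs, 0.24 for Pax3 and 0.22 for Pax7, were above those of 92.2% and 89.2% of genes, so that the intervals were wide and a modest change in either direction was not detectable.

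On the dI6 side, none of Gsx1, Ptf1a and Dbx2 differed by as much as 0.1. Gsx1 read 7.91, 7.91 and 8.03 in knockout arrays, against 7.74, 8.01 and 7.91 in wild-type arrays. It was the most even of the 9, with a range of 0.28 over the 6 arrays, and it differed by 0.06 (95% interval -0.15 to 0.26), or by -0.02 when wild-type replicate 1 was left out. Ptf1a read 5.76, 5.73 and 6.04 in knockout arrays, against 5.83, 5.83 and 6.11 in wild-type arrays, all 6 below the background guide. Its difference of -0.08 (interval -0.35 to 0.19; 0.01 without wild-type replicate 3) therefore says little about the transcript. Dbx2 read 7.33, 7.65 and 7.58 in knockout arrays, against 7.39, 7.48 and 7.71 in wild-type arrays. Its group means, 7.52 ± 0.17 in knockout and 7.53 ± 0.16 in wild type (SD, n = 3 each), were almost the same, with an interval of the difference from -0.27 to 0.26. Dropping knockout replicate 1 or wild-type replicate 3 gave 0.09 for Dbx2, and dropping wild-type replicate 1 or knockout replicate 2 gave -0.07.

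**Figure D2:**
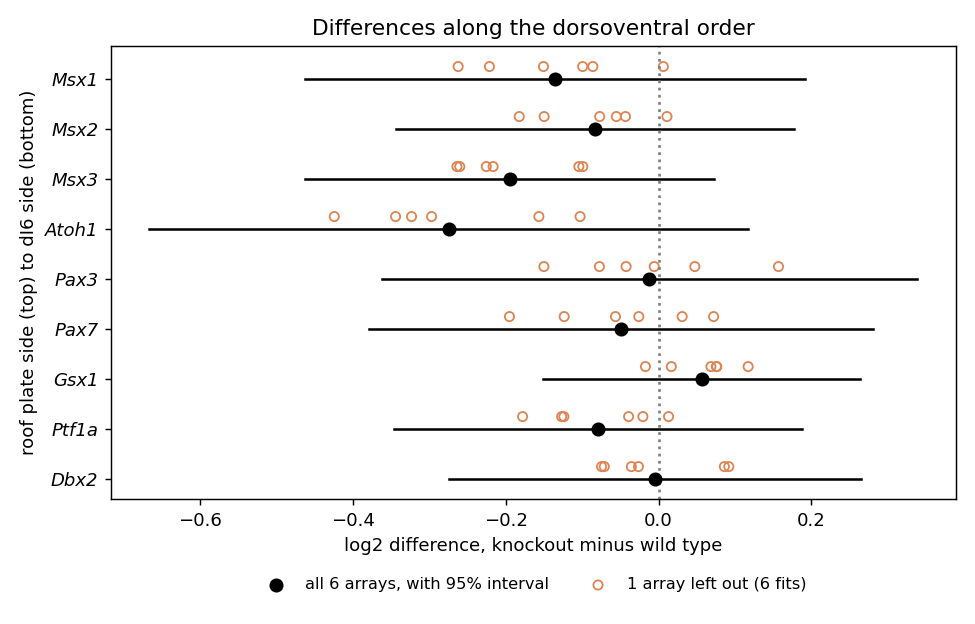
Log2 difference of knockout minus wild type (horizontal axis) for the 9 factors, from the roof plate side at the top to the dI6 side at the bottom. Black points and lines give the limma estimate and its 95% interval over all 6 arrays, and open circles the 6 estimates with 1 array left out; every interval crosses 0, and the circles of Msx3 and Atoh1 alone stay on the negative side.

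Along the order from roof plate to dI6, Atoh1, Msx3 and Msx1 had the most negative values over all 6 arrays. With array weights, or without both wild-type arrays at the ends of the first component, Pax3 (-0.31 and -0.35) and Pax7 (-0.25 and -0.29) were more negative than Msx1 (-0.14 and -0.11), so the order changed with these settings. As a single value per array, with Pax3 and Pax7 left out because they span the domains, the mean of Msx1, Msx2, Msx3 and Atoh1 minus the mean of Gsx1, Ptf1a and Dbx2 was 0.49, 0.21 and 0.36 in knockout arrays and 0.42, 0.65 and 0.48 in wild-type arrays. Group means were 0.35 ± 0.14 in knockout and 0.52 ± 0.12 in wild type (SD, n = 3 each), a difference of -0.16. Knockout replicate 1 lay above the lowest wild-type array, so the groups overlapped on this scale too. The difference stayed negative with each array left out, between -0.23 and -0.09, and was -0.20 without Ptf1a. It is given as a description, with no test, since the genes were chosen with results of these arrays known.

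Over the arrays some of the factors had profiles close to each other. The root mean square distance between the centred profiles of Msx1 and Msx2 was 0.06 log2 units, the smallest of all pairs among the 9, and that of Pax3 and Pax7 was 0.07. Atoh1 was closest to Msx3 among the members, at 0.11. Wild-type replicate 2 was the highest array for Msx3, Atoh1, Pax3 and Pax7, 4 of 9 members beside 14.2% of all genes. For Msx1, Msx2, Ptf1a and Dbx2 the highest array was wild-type replicate 3, which is highest for 31.1% of all genes. Wild-type replicate 1 was lowest for 5 of 9 members (Msx1, Msx2, Pax3, Pax7 and Gsx1), beside 28.9% of all genes. The mean of the 9 factors ran from 7.48 to 7.68 in knockout arrays and from 7.44 to 7.76 in wild-type arrays, so the wild-type arrays alone spanned more than the knockout arrays did.

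Genes outside the set were also ranked by profile, over 14676 genes above the background guide, for the 3 members of widest spread over the 6 arrays. The gene nearest to Atoh1 was Fgf15, a secreted fibroblast growth factor, at a distance of 0.036. Fgf15 read 9.42, 9.08 and 9.55 in knockout arrays, against 9.35, 9.93 and 9.54 in wild-type arrays, with knockout replicate 2 lowest and wild-type replicate 2 highest as for Atoh1, and its difference was -0.26. Msx3 would stand second in that ranking, whereas Atoh1 would rank only 323 in the ranking for Msx3. Pax3 was nearest to Kif2c, a kinesin of dividing cells, at 0.030, and Pax7 would rank 7. Msx1 was nearest to Tssk6 at 0.026, and Msx2 would rank 40, with Msx1 at 133 in the ranking for Msx2. Each likeness is over 6 values and describes these arrays only.

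**Figure D3:**
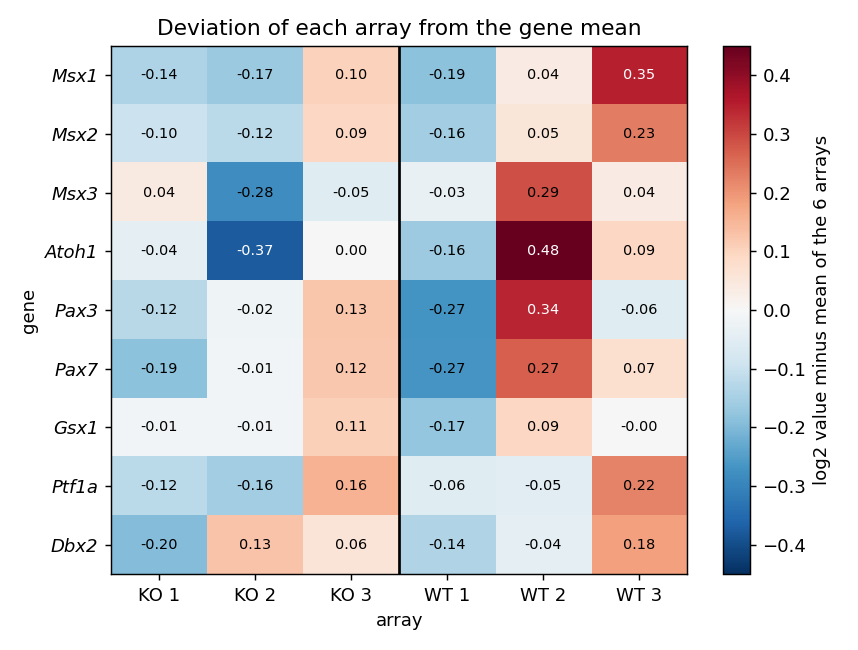
Deviation of each array from the gene's mean over the 6 arrays, in log2 units (colour and printed value), with genes from the roof plate side at the top to the dI6 side at the bottom and knockout arrays (KO) left of wild-type arrays (WT). Msx1 and Msx2 share a profile that peaks in wild-type replicate 3, whereas Msx3, Atoh1, Pax3 and Pax7 peak in wild-type replicate 2.

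Genes that act around these factors were read from lists chosen by name. Among 12 measured roof plate genes, knockout signal was higher for 4 and lower for 8, the median was -0.05, and 0 passed the test. Wnt1 and Wnt3a, the roof plate Wnt ligands, differed by -0.10 (interval -0.35 to 0.16) and -0.13 (-0.45 to 0.20). Gdf7, the roof plate BMP ligand, differed by -0.03. The 3 roof plate genes of smallest p were Zic2 (-0.13), Rspo3 (0.10) and Zic5 (-0.17), Zic2 and Zic5 being zinc finger factors of dorsal progenitors and Rspo3 an enhancer of Wnt signalling. The median of the list ran from -0.15 without wild-type replicate 1 to 0.02 without wild-type replicate 3, as for the members. Of 16 BMP and Wnt receptors, antagonists and target genes, knockout signal was higher for 5 and lower for 11, the median was -0.03 (0.02 with wild-type replicate 2 left out), and 0 passed the test. The 3 of smallest p in this list were Id1, a direct BMP target (-0.13), Id2 (-0.08) and the Wnt target Axin2 (-0.09). Lef1, also a Wnt target, differed by 0.09 and Bambi, a decoy receptor, by 0.10, both among the 5 higher.

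Other dorsal progenitor genes gave a positive median, 0.05, with 10 of 14 measured higher in knockout and 0 past the test. This median was -0.02 when wild-type replicate 1 was dropped and 0.12 when wild-type replicate 3 was dropped. Olig3, the basic helix-loop-helix factor of the dI1 to dI3 progenitors and so a neighbour of Atoh1, read 9.23, 9.24 and 9.01 in knockout arrays, against 8.51, 8.89 and 8.88 in wild-type arrays. All 3 knockout arrays stood above all 3 wild-type arrays. The log2 difference was 0.40 (95% interval 0.12 to 0.68) and stayed between 0.27 and 0.48 with single arrays left out, while the adjusted p over all genes rounded to 1. Irx3, a homeodomain factor of intermediate progenitors (0.21, or 0.10 with wild-type replicate 1 left out), and Sp8 (0.12) also had knockout arrays wholly above wild type, which makes 3 of 14 beside 3.18% of all genes. Gsx2, the close relative of Gsx1, differed by -0.13, Pax6 by 0.14 (interval -0.15 to 0.43) and Dbx1, the relative of Dbx2, by 0.14 (interval -0.47 to 0.75). Omission of wild-type replicate 1 gave -0.0062 for Pax6 and -0.15 for Dbx1. Dbx1 values spread widely, at 8.86, 9.30 and 9.54 in knockout arrays and 8.51, 9.52 and 9.25 in wild-type arrays.

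Among factors of the neurons that these progenitors make, knockout signal was higher for 10 of 21 and lower for 11, the median was -0.02 (-0.08 with wild-type replicate 1 left out and 0.02 with wild-type replicate 2 left out), and 0 passed the test. The dI1 factors downstream of Atoh1 did not share its negative value: Barhl1 differed by 0.08, Barhl2 by 0.11, Lhx2 by 0.07 and Lhx9 by 0.12, and each interval crossed 0. Without wild-type replicate 1, Barhl1 differed by -0.02 and Lhx2 by -0.17. Lmx1b, a factor of excitatory dI5 neurons, read 10.48, 10.35 and 10.52 in knockout arrays, against 10.61, 10.71 and 10.55 in wild-type arrays. It was the 1 gene of that list with all knockout arrays below wild type (beside 2.64% of all genes), at a difference of -0.18 and an interval from -0.36 to 0.01. Foxp2 and Wt1, the other genes of smallest p there, differed by 0.25 (interval -0.04 to 0.54) and 0.33 (-0.20 to 0.86). Wt1 ranged from 0.06 with wild-type replicate 1 left out to 0.58 with wild-type replicate 3 left out. Lbx1, which separates dI4 to dI6 cells from more dorsal ones, differed by -0.06, Tlx3 by -0.11 and Pax2, a factor of inhibitory neurons, by 0.01.

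The ventral progenitor factors gave a higher median than the dorsal ones, 0.20 against -0.08, with 9 of 11 higher in knockout and 0 past the test. Leaving out single arrays took the ventral median between 0.07 and 0.20 and the dorsal one between -0.18 and 0.0062. The 3 of smallest p were Nkx2-2 (0.30), Foxa2 (0.25) and Olig2 (0.24). No test of the difference between the lists was made, and nothing is read from it beyond these values.

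**Figure D4:**
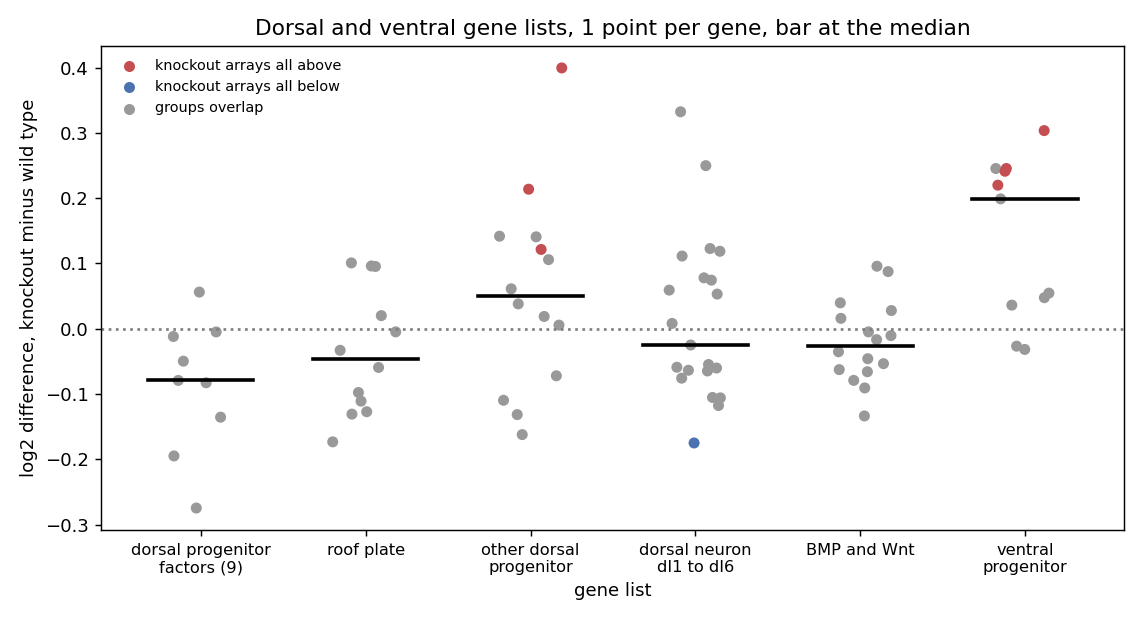
Log2 difference of knockout minus wild type (vertical axis) for the genes of 6 lists, with 1 point per gene and a bar at the list median. Red points mark genes whose knockout arrays all lie above the wild-type arrays and blue points the reverse; all 9 dorsal progenitor factors are grey, and their median of -0.08 lies below the ventral median of 0.20.

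Several of these factors are also made outside the cord, Msx1 and Msx2 in meninges and bone, and Pax3 and Pax7 in muscle precursors and neural crest. Of 12 meningeal and fibroblast genes 2 were higher and 10 lower, with list means from 6.93 to 7.12 in knockout arrays and from 7.12 to 7.21 in wild-type arrays. Muscle genes split into 6 higher and 6 lower, with list means from 6.34 to 6.54 in knockout and from 6.29 to 6.62 in wild type. Wild-type replicate 3 held the highest mean for muscle, for cartilage and bone and for the genes listed as brain regional (6.35). It also held the highest mean for the dorsal neuron factors (9.41). Of the muscle genes 7 of 12 stood above the background guide, of cartilage and bone genes 6 of 10, and of brain regional genes 3 of 9. Wild-type replicate 3 also had the highest median over all clusters (7.10), though not over the genes tested (7.88). The same array was the top one for Msx1 and Msx2, as for 31.1% of all genes. The meningeal and fibroblast mean was highest in wild-type replicate 2 (7.21), as were Pax3 and Pax7. The muscle precursor factor Myf5 stood below the background guide in all arrays, while Myod1 averaged 6.79 in knockout and 6.93 in wild type. Cartilage and bone genes had 6 of 10 higher (means from 6.92 to 7.11 in knockout and from 6.86 to 7.18 in wild type), and Schwann and neural crest genes likewise 6 of 10 (from 8.79 to 8.85 in knockout and from 8.73 to 8.84 in wild type). Dorsal root ganglion genes had 8 of 9 higher, with means from 7.82 to 7.94 in knockout and from 7.68 to 7.89 in wild type. The part of these cells in the values of Msx1, Msx2, Pax3 and Pax7 was not tested.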

How the data were processed

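The authors deposited log2 expression values for 35557 transcript clusters on 6 arrays, made with RMA per the submitters' processing notes (no version given), which corrects background, equalises the arrays' distributions and summarises probes per cluster. Quantile steps of this kind remove global shifts and may alter small differences, which was not tested on the unprocessed signals. The platform annotation gave 21789 clusters exactly 1 gene symbol. Symbols were updated through entrez identifiers, and each of 19938 genes was taken from its brightest cluster on average. Groups were compared with limma 3.58.1 in R 4.3.3 (lmFit and eBayes, group as the only term, no filter on dim genes, two-sided p adjusted by Benjamini-Hochberg over all genes), after the test was checked on simulated data. The simulated noise was independent between genes. In the real arrays 50.2% of the variance lay on the first component, so the check does not cover noise that genes share. Intervals are moderated 95% intervals. The number of arrays limits the precision.

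Members and lists were chosen with earlier results of these data known, so lists are described by counts and medians. Named genes are Tnc, the 9 members, 16 companions fixed by name (14 of them measured) and sex-linked genes. The 3 genes of smallest p were also named for each roof plate, dorsal, ventral or BMP and Wnt list. Genes named outside that rule were chosen after their values were seen. Likeness is the root mean square distance between profiles centred on their means. Alternatives were omission of single arrays, a replicate block, filters, variance models, array weights, 3 normalizations, other cluster rules, a term for Y-linked signal, other thresholds and, added after seeing the data, removal of both wild-type arrays at the ends of the first component. Motifs were searched by letters in RefSeq promoters (GRCm38.p6). Figures were drawn with matplotlib 3.10.9.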

Additional observations from a re-analysis of the deposited data

How the results depend on the processing

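Of 20 alternative fits, Atoh1 and Msx3 were lower in knockout in every one, from -0.65 to -0.10 and from -0.42 to -0.10, and no member passed an adjusted p of 0.05 in any of them. The replicate block, filters on dim genes, variance models and cluster rules could not change the Atoh1 and Msx3 differences, so their agreement adds no support. Over the 6 fits that leave out 1 array, 20.8% of all genes stayed lower, as Atoh1 and Msx3 did. An unadjusted p under 0.05 was reached by Atoh1, Msx3, Pax3 and Pax7 in some fits, with no share of all genes counted beside it. The smallest adjusted p values of Atoh1 and Msx3, 0.0877 and 0.0951, came with array weights, which gave wild-type replicate 2 a weight of 6.39 and wild-type replicates 1 and 3 weights of 0.41 and 0.27, after the weight estimate had stopped short of its tolerance. Genes past the threshold numbered 0 over all 6 arrays, 0 to 4 with single arrays left out (4 without knockout replicate 2, all of them sex-linked), and 9 with all clusters of the table, none of them a member. Unadjusted p thresholds of 0.05 and 0.01 gave 339 and 43. With single arrays left out, the median of the members ran from -0.18 to 0.0062 and the number higher from 0 to 5. Ranges over the same fits were -0.26 to 0.0062 for Msx1, -0.18 to 0.011 for Msx2, -0.15 to 0.16 for Pax3, -0.20 to 0.072 for Pax7, -0.017 to 0.12 for Gsx1, -0.18 to 0.013 for Ptf1a and -0.075 to 0.092 for Dbx2. With array weights Pax3 was -0.31, Pax7 -0.25, Gsx1 was -0.062, Dbx2 0.079 and the roof plate side minus dI6 side difference -0.32. With the term for Y-linked signal, which compares knockout replicate 2 with the wild-type arrays, that difference was -0.30, Dbx2 was 0.13 and 2 members were higher. Without both wild-type arrays at the ends of the first component, which leaves 1 wild-type array assumed to vary like the others, it was -0.30, Pax3 was -0.35, Pax7 -0.29, Gsx1 was -0.066, Ptf1a 0.010 and Dbx2 0.038, with 2 members higher. The cause of these shifts was not tested. Repeated normalization turned no member's sign. The other variance models leave the differences unchanged, so they could not turn one. Whether the shared replicate numbers pair the samples is not stated in the labels. Deviations of same-numbered arrays correlated at 0.35, -0.07 and 0.45, and wild-type replicate 2 correlated best with knockout replicate 1. With 3 arrays per group these correlations cannot settle the pairing. With the replicate block the median was -0.08, 1 member was higher and 0 genes passed. Ptf1a, below the background guide, was dropped by both filters on dim genes.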
